A study of Homo sapiens with 6 samples.

Results

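Aminoacyl-tRNA synthetases charge each tRNA with its amino acid, and histone H4 acetylation (H4ac) at the start sites of their genes was compared between TIP60 knockdown and control H1975 cells. The members are 38 genes fixed by name: 18 cytosolic synthetase genes, 2 genes whose product serves both compartments (KARS and GARS), 16 mitochondrial synthetase genes and 2 scaffold genes (AIMP1 and AIMP2). A gene was represented by the region centred within 1 kb of its start site that held most reads. Of the 38 genes, 34 had such a region under their own name in the shTIP60-B table and 33 in the shTIP60-C table, out of 11541 and 11549 genes in all.

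H1975 is an established human non-small cell lung cancer line. It carried a doxycycline-inducible hairpin, either shTIP60-B or shTIP60-C, both aimed at TIP60, or shControl, and all 3 kinds of cells received 0.5 µg/ml doxycycline for 2 days. Each hairpin gave 1 H4ac ChIP library and 1 input library, so a deposited ratio compares a pair of libraries and has no replicate check. The sources used here do not say whether the cells were clones or pools.

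The cytosolic enzymes supply translation on cytosolic ribosomes, and several of them sit in a multi-synthetase complex held together by the AIMP scaffolds. The mitochondrial enzymes, also encoded in the nucleus, charge the tRNAs of the organelle. Many cytosolic synthetase genes are known targets of ATF4, the transcription factor of the amino acid response, which binds a composite element read here as TGATGNAA. TIP60, encoded by KAT5, is an acetyltransferase that modifies histones H4 and H2A, and acetylated H4 marks active start sites.

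Promoters of 7 members are shown because results below turn on them: 5 that hold the letters TGATGNAA on either strand (reverse complement TTNCATCA), and 2 mitochondrial genes without it that lay at opposite ends of the ratios. They are RefSeq sequences of GRCh38.p14, 5′ to 3′ on the gene's own strand and ending 30 bases past the annotated start. Capitals mark the motif. CARS (minus strand, chr11:3057394-3057543) and MARS (plus, chr12:57487948-57488097) have it across the start, IARS (minus, chr9:92293668-92293817) just before it, and AARS (minus, chr16:70289477-70289726) and YARS2 (minus, chr12:32755868-32756117) farther up. PARS2 (minus, chr1:54764494-54764643) and MARS2 (plus, chr2:197705249-197705398) are the pair without it.
CARS: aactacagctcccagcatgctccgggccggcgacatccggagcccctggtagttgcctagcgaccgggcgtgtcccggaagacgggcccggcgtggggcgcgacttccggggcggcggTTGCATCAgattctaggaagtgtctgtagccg
IARS: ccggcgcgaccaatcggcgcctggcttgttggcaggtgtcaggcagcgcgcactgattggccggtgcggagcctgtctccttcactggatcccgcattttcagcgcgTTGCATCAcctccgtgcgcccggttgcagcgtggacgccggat
MARS: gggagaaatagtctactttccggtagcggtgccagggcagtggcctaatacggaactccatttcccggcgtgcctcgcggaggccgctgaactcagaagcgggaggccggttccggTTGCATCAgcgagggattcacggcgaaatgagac
AARS: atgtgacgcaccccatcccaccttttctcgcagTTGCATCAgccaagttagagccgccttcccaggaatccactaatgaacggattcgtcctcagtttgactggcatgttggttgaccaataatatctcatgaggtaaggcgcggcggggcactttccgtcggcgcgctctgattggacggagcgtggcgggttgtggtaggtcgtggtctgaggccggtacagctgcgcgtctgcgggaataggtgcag
YARS2: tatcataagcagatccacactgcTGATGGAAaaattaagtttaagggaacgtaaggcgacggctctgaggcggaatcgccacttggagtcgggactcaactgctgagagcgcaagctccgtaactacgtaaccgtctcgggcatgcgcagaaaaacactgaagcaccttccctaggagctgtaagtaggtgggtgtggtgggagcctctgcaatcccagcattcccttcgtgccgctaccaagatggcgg
PARS2: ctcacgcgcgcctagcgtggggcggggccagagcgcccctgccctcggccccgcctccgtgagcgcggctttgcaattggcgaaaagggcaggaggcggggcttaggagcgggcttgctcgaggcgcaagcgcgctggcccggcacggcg
MARS2: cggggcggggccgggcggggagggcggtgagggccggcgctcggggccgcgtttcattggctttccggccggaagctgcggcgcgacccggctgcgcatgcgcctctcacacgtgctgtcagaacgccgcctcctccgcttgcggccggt

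With the first transcribed base counted as 1 and the base before it as -1, the leftmost motif base lay at -2 in CARS, -13 in IARS, -4 in MARS, -187 in AARS and -197 in YARS2. CARS, IARS, MARS and AARS had the same 8 letters, TTGCATCA, and YARS2 had the other orientation. In all, 8 of the 32 members with a RefSeq window of 300 bases held the motif, the others being NARS, TARS and GARS. It was in 8 of the 44 windows of members (18.2%), since some genes have several starts, and in 1270 of 35116 windows genome-wide (3.62%). Among the synthetases listed as amino acid response genes, 7 of 10 with a window held it, and 0 of 6 other cytosolic or dual ones did. That list was drawn from known ATF4 targets, so the motif and the list are not independent. DARS, LARS, VARS, YARS, AARS2 and VARS2 had no window. A match is a run of letters and not a measured binding site.

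The tables held 63299 regions with shTIP60-B and 66546 with shTIP60-C. Their regions summed to 5508475 reads in shTIP60-B and 6706229 in shControl cells, and to 13429202 reads in shTIP60-C and 7043106 in shControl cells. Raw reads therefore cannot be compared directly, and ratios are given as M, the authors' rescaled log2 ratio of knockdown over control. Because M drifted by chromosome in the shTIP60-B table, the median M of all regions on the gene's chromosome was subtracted ("centred M"). Each M carries a 95% Clopper-Pearson interval of the read counts, computed exactly, which covers counting error only, as do the deposited p-values, which are not adjusted. At KAT5, the targeted gene, M was 0.20 (-0.01 to 0.41) for shTIP60-B, and 0.23 (0.06 to 0.41) for shTIP60-C. A hairpin acts on the transcript, so acetylation there does not check the knockdown.

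The 32 members with a control peak at their start differed widely in H4ac level. Levels are reads per kb per 1000000 reads in control peaks, at the same control peak in each library. They were not corrected for input or copy number, so differences between genes and classes are descriptive. VARS, the valine enzyme, had the highest level, 72.7 in shTIP60-B, 87.5 in shTIP60-C and 69.5 in shControl cells. RARS, the arginine enzyme, had the lowest control level, with 9.36 in shTIP60-B, 10.4 in shTIP60-C and 9.93 in shControl cells. The median shControl level was 23.4 over 15 cytosolic genes, 15.2 over 14 mitochondrial genes and 20.9 over all 10775 genes with a control peak at their start. FARS2, the mitochondrial phenylalanine enzyme, was the second highest in control cells with 63.7 in shTIP60-B, 68.4 in shTIP60-C and 68.0 in shControl cells, so the classes overlapped.

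**Figure D1:**
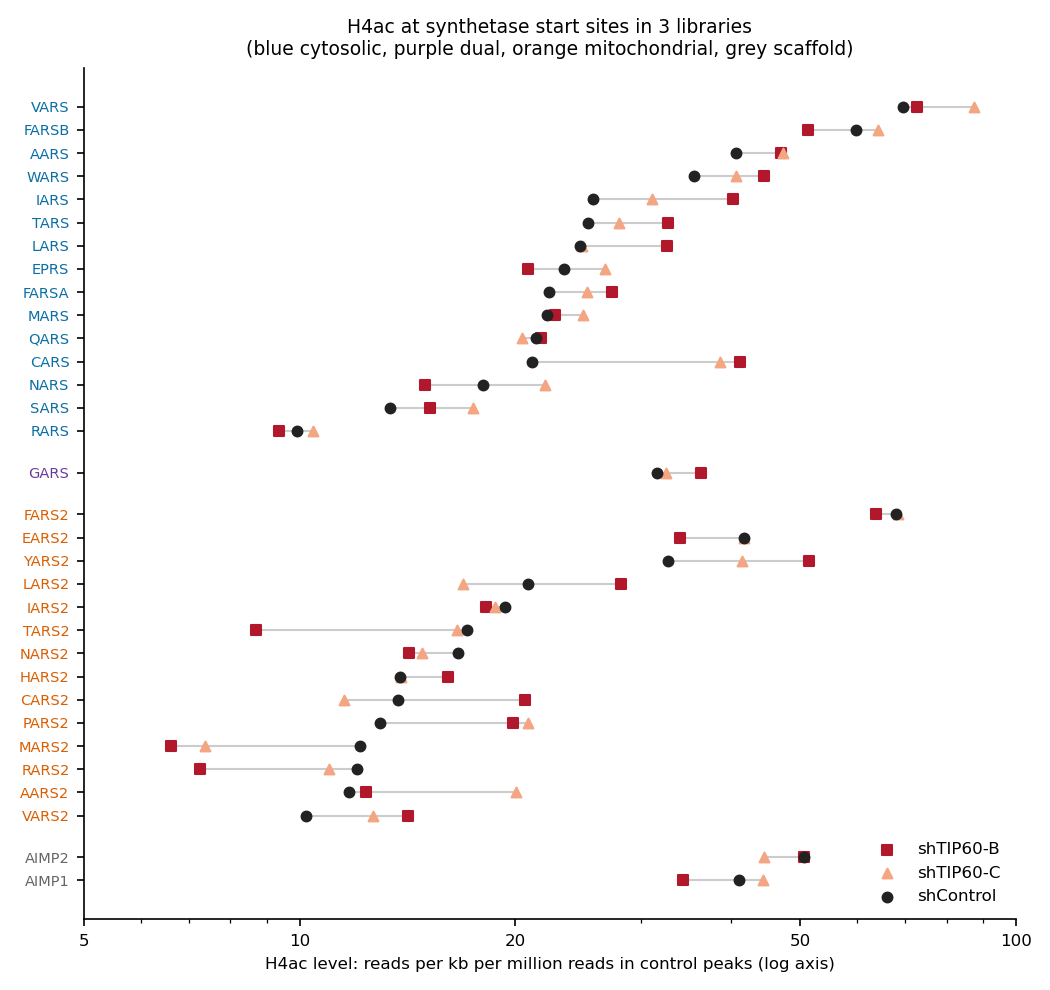
H4ac level of 32 members at their control peak in shTIP60-B (squares), shTIP60-C (triangles) and shControl (circles) libraries, 1 library each, on a log axis in reads per kb per 1000000 reads in control peaks. Genes are ordered within class by control level; CARS and PARS2 have both knockdown points right of the control point, and MARS2 and RARS2 have both left of it.

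CARS, which charges cysteine tRNA, was the one member that passed the call rule of a fold of at least 2 and p of at most 1e-05. With shTIP60-B its region at hg19 chr11:3077544-3079082, centred 368 bp past the start in the first intron, held 145 reads in shTIP60-B against 87 in shControl cells. That gave M of 1.02 (0.62 to 1.42) and p of 5.93e-08. In the shTIP60-C table a wider copy of the region, chr11:3077680-3079409, held 325 reads in shTIP60-C against 87 in shControl cells, with M of 0.97 (0.63 to 1.33) and p of 2.54e-07. That is a 1.96-fold ratio, just short of the fold threshold. Centred M was 0.89 with shTIP60-B and 0.95 with shTIP60-C, the highest of the members with each hairpin. Both ratios are taken over the same shControl library, so they are not independent of each other. At the narrower control peak of the same start the counts were 125 in shTIP60-B and 278 in shTIP60-C against 82 in shControl cells. There M was 0.87 (p of 1.21e-05) and 0.83 (p of 4.34e-05), outside the rule.

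Calls of members were few. With shTIP60-B 1 of 34 members passed higher, against 1.29% of all genes, and 0 passed lower, against 3.51%. With shTIP60-C 0 of 33 passed higher, against 0.147%, and 0 passed lower, against 0.0433%. At a fold of at least 1.5 and p of at most 0.001, 3 members passed higher with shTIP60-B (CARS, IARS and YARS2), against 5.52% of all genes, and 0 lower, against 10.9%. At that setting CARS alone passed with shTIP60-C, against 1.58% higher, and 0 passed lower, against 0.935%. No difference from the background is read from counts this small.

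IARS, the isoleucine enzyme of the multi-synthetase complex, held 255 reads in shTIP60-B against 208 in shControl cells at hg19 chr9:95055200-95057423, with M of 0.65 (0.38 to 0.93) and p of 5.34e-07. In shTIP60-C cells the same region held 466 reads against 208 in shControl cells, and M was 0.25 (0.01 to 0.50). Centred M of IARS was 0.45 (0.18 to 0.72) for shTIP60-B, and 0.17 (-0.07 to 0.41) for shTIP60-C, where the interval includes 0. YARS2, the mitochondrial tyrosine enzyme, held 171 reads in shTIP60-B against 139 in shControl cells, with M of 0.61 (0.27 to 0.94), centred M of 0.81 and p of 0.000197. With shTIP60-C it held 331 reads against 149 in shControl cells, in a wider copy of the region, and M was 0.23 (-0.05 to 0.52) and centred M 0.31. Both genes lay on the higher side with each hairpin, by less with shTIP60-C, and whether the hairpins differed cannot be tested with 1 library each.

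AARS, the alanine enzyme, shows what centring does. It held 299 reads in shTIP60-B against 332 in shControl cells, and 716 in shTIP60-C against 332 in shControl cells. Its deposited M was 0.23 with shTIP60-B and 0.21 with shTIP60-C. The median M of chromosome 16 was -0.49 for shTIP60-B and -0.03 for shTIP60-C; centred M was therefore 0.72 and 0.25. AARS was thus among the highest members with shTIP60-B only after the chromosome's own shift had been removed. An overlapping region named for the neighbouring gene DDX19B had centred M of 0.50 with shTIP60-B and 0.02 with shTIP60-C.

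Most cytosolic promoters lay above their chromosome's median. Centred M was above 0 at 13 of 15 cytosolic genes with each hairpin, against 47.2% of all genes with shTIP60-B and 53.4% with shTIP60-C. The count is lower at the control peak, where RARS had -0.37 with shTIP60-B and -0.03 with shTIP60-C, and QARS -0.46 with shTIP60-B. The cytosolic median was 0.33 (quartiles 0.08 to 0.58) with shTIP60-B, against -0.03 over all genes, and for shTIP60-C it was 0.25 (0.16 to 0.35), against 0.03. SARS, the serine enzyme, reached 0.68 with each hairpin, on 72 reads in shTIP60-B against 65 in shControl cells, and 213 in shTIP60-C against 72 in shControl cells. At its control peak it had 0.33, on 55 reads in shTIP60-B against 62 in shControl cells, and 0.38, on 150 in shTIP60-C against 62 in shControl cells. With shTIP60-B the lowest was NARS, the asparagine enzyme, at -0.36 on 35 reads in shTIP60-B against 54 in shControl cells, and with shTIP60-C it was QARS, the glutamine enzyme, at -0.08. NARS stood at 0.33 with shTIP60-C, on the other side of 0. With shTIP60-B 7 of the 15 counting intervals lay wholly above 0, and with shTIP60-C 5 of 15.

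The mitochondrial genes spread more widely. Their median centred M was 0.16 (quartiles -0.15 to 0.58) over 16 genes for shTIP60-B, and 0.02 (-0.10 to 0.33) over 15 genes for shTIP60-C. It was above 0 at 11 of 16 and 9 of 15. The median of the cytosolic genes exceeded that of the mitochondrial genes by 0.17 with shTIP60-B and 0.22 with shTIP60-C. Centring in windows of 10 Mb gave 0.10 and 0.11, and centring on genes of like signal 0.18 and 0.22. These are differences of medians in single libraries and were not tested. They were smaller than the range among mitochondrial genes, which ran from -1.14 to 0.81 with shTIP60-B. Both comparisons share the shControl library, so the hairpins are not independent of each other. Ribosomal protein genes, read the same way, had medians of 0.37 (cytosolic) and 0.15 (mitochondrial) for shTIP60-B, and of 0.14 in both sets for shTIP60-C.

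**Figure D2:**
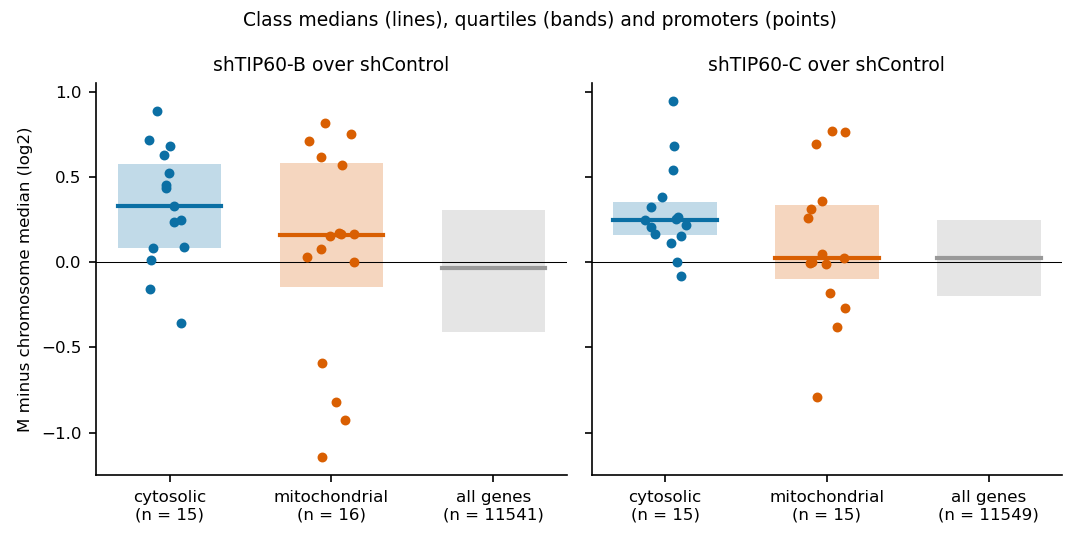
Centred M (log2) of cytosolic and mitochondrial synthetase promoters beside all genes, for shTIP60-B (left) and shTIP60-C (right) over shControl; points are genes, lines medians and bands quartiles. The cytosolic medians are 0.33 and 0.25, the mitochondrial ones 0.16 and 0.02, and the 4 lowest mitochondrial genes with shTIP60-B lie below all cytosolic ones.

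Among the mitochondrial genes YARS2 was the highest with shTIP60-B, at 0.81, followed by PARS2 and VARS2, and with shTIP60-C VARS2, AARS2 and PARS2 led. PARS2, the proline enzyme, held 55 reads in shTIP60-B against 46 in shControl cells, and 139 in shTIP60-C against 46 in shControl cells. Its centred M was 0.75 (0.16 to 1.35) for shTIP60-B, and 0.69 (0.20 to 1.21) for shTIP60-C, so it was high with each, over the same shControl library. VARS2, the valine enzyme, reached 0.71 with shTIP60-B on only 31 reads in shTIP60-B against 23 in shControl cells, and 0.77 with shTIP60-C on 89 in shTIP60-C against 27 in shControl cells. At its control peak the values were 0.38, on 25 reads in shTIP60-B against 23 in shControl cells, and 0.24, on 53 in shTIP60-C against 23 in shControl cells. The region overlaps the end of a neighbouring gene. AARS2, the alanine enzyme, was high with one hairpin: 24 reads in shTIP60-B against 29 in shControl cells gave 0.00, and 95 in shTIP60-C against 29 in shControl cells gave 0.76 (0.15 to 1.42).

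At the low end stood MARS2, TARS2, RARS2 and NARS2, all on few reads. With shTIP60-B the TARS2 and RARS2 regions were called in the control peak list and not in the shTIP60-B list. They were listed because the control was high there, which favours a low ratio. MARS2, the methionine enzyme, held 17 reads in shTIP60-B and 45 in shTIP60-C against 40 in shControl cells at hg19 chr2:198569308-198570212. Its centred M was -1.14 (-2.06 to -0.29) for shTIP60-B, and -0.79 (-1.44 to -0.14) for shTIP60-C. It was the lowest member with each hairpin, over the same shControl reads. The partly overlapping knockdown region 3′ of it gave the other direction, with 26 reads in shTIP60-B against 15 in shControl cells and 43 in shTIP60-C against 14 in shControl cells, centred M 0.85 and 0.60. The direction at MARS2 thus depends on which region is read, and the mean over its regions was -0.15 with shTIP60-B and -0.10 with shTIP60-C.

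TARS2, the threonine enzyme, held 19 reads in shTIP60-B against 48 in shControl cells, with centred M of -0.93 (-1.78 to -0.13). A wider copy of the region with 152 reads in shTIP60-C against 64 in shControl cells gave 0.36, and 86 in shTIP60-C against 48 in shControl cells at the control peak gave -0.07. RARS2, the arginine enzyme, held 17 reads in shTIP60-B against 36 in shControl cells, with centred M of -0.82 (-1.74 to 0.05), and 61 in shTIP60-C against 36 in shControl cells, with -0.18. An overlapping region named for ORC3 gave 0.08 with shTIP60-C. NARS2, the asparagine enzyme, held 38 reads in shTIP60-B and 94 in shTIP60-C against 57 in shControl cells, and its centred M was -0.59 and -0.27. LARS2, the leucine enzyme, held 105 reads in shTIP60-B against 94 in shControl cells, with 0.16, and 140 in shTIP60-C against 93 in shControl cells, with -0.38. Apart from MARS2, and TARS2 with shTIP60-B, the intervals of these low values include 0.

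Counting intervals of centred M lay wholly above 0 at 13 of 34 members with shTIP60-B, against 18.8% of all genes, and at 9 of 33 with shTIP60-C, against 15.9%. They lay wholly below 0 at 2 members with shTIP60-B, against 20.8% of all genes, and at 1 with shTIP60-C, against 12.3%. Among cytosolic genes 7 were above with shTIP60-B (AARS, CARS, IARS, LARS, SARS, TARS and VARS) and 5 with shTIP60-C (AARS, CARS, SARS, VARS and WARS). Among mitochondrial genes 4 were above with shTIP60-B (CARS2, PARS2, WARS2 and YARS2) and 4 with shTIP60-C (AARS2, PARS2, VARS2 and YARS2). The members below were MARS2 and TARS2 with shTIP60-B, and MARS2 with shTIP60-C. These counts rest on the copy of a region that held most reads, and the TARS2 region with shTIP60-B was called in the control list only. The interval narrows with reads, so genes of high signal pass more readily.

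**Figure D3:**
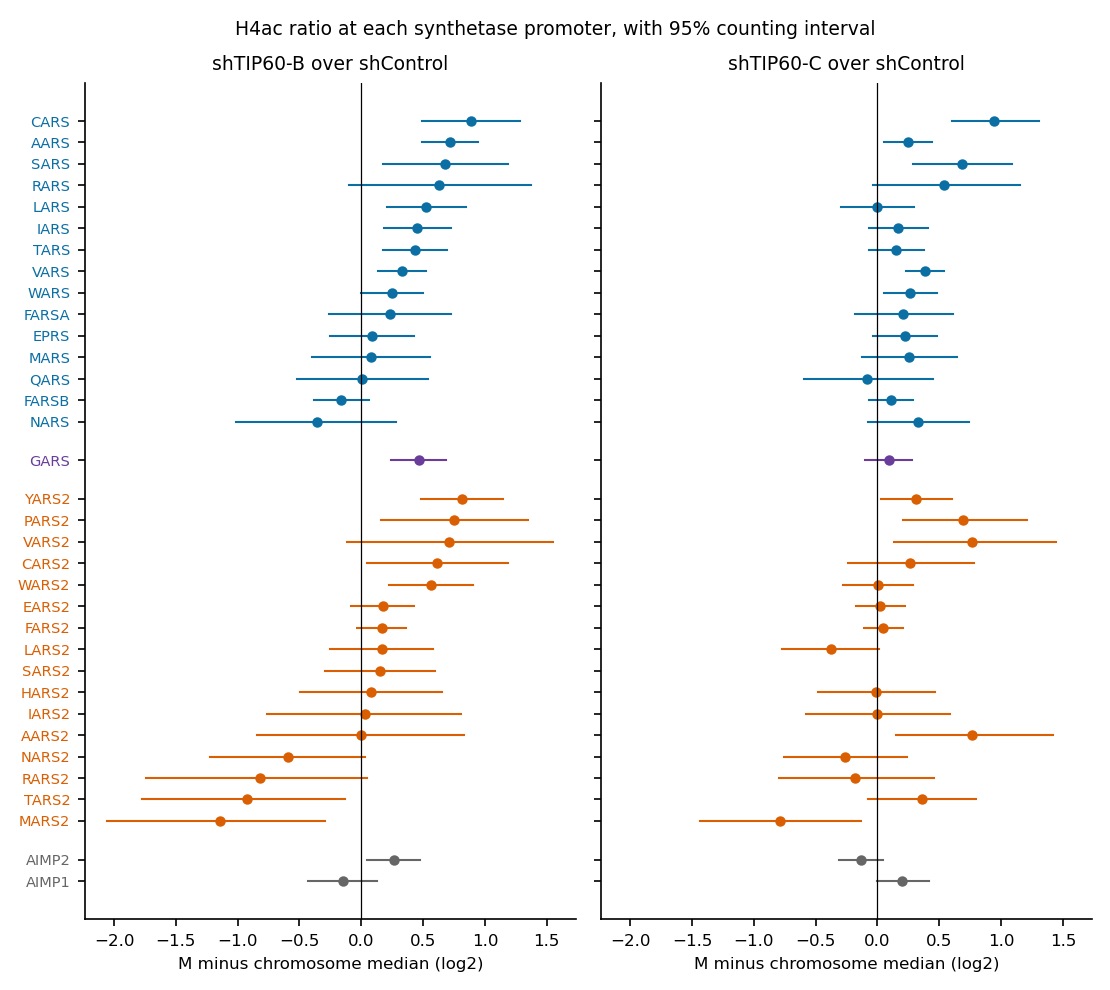
Centred M (log2) of each member with its 95% counting interval, for shTIP60-B (left) and shTIP60-C (right) over shControl; genes are ordered within class by the shTIP60-B value. CARS is at 0.89 and 0.95, and MARS2 at -1.14 and -0.79; SARS2 has no point on the right because its region carried another gene's name.

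**Figure D4:**
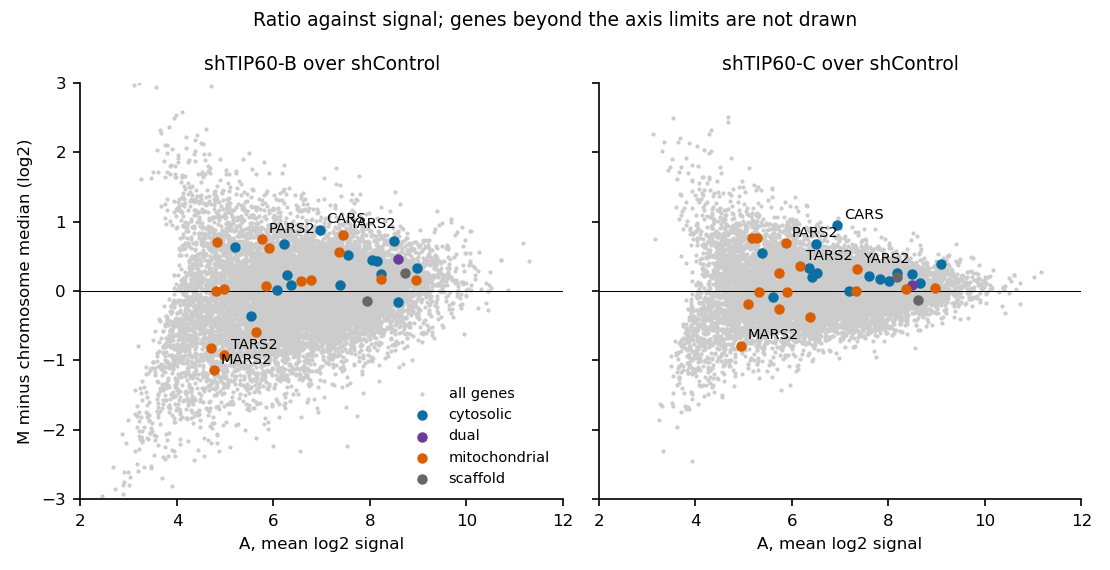
Centred M (log2) against A, the authors' mean log2 signal of a region, for members (coloured by class) over all genes (grey), with shTIP60-B left and shTIP60-C right. The spread widens at low A, where the 4 lowest mitochondrial genes with shTIP60-B lie, and CARS stands at an A of about the middle of the members.

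Signal differed between the classes. Median A was 7.38 for cytosolic and 5.80 for mitochondrial genes with shTIP60-B, against 6.58 for all genes, and 7.19 and 5.87 against 6.69 with shTIP60-C. Without the 25% of regions lowest in A the class difference was 0.15 with shTIP60-B and 0.22 with shTIP60-C. With all regions it was 0.17 and 0.22. That filter kept 15 cytosolic genes and 12 of the 16 mitochondrial genes with shTIP60-B, so the genes compared were not the same. Among regions of at least 100 reads, a setting chosen after seeing the data, the class difference was 0.16 and 0.20. The genes left there with shTIP60-B were 13 cytosolic and 9 mitochondrial. Median GC content of the RefSeq windows was 61.3% for cytosolic and 62.7% for mitochondrial genes, against 58.7% for all windows.

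Genes for the same amino acid were set side by side in 15 pairs with shTIP60-B and 14 with shTIP60-C, with EPRS and FARS2 each in 2 pairs. The cytosolic gene was the higher in 10 pairs with each hairpin, and the median pair difference was 0.27 with shTIP60-B and 0.19 with shTIP60-C. They were not all the same pairs. Of pairs measured with both hairpins, the alanine and threonine pairs had the cytosolic gene higher with shTIP60-B only. The glutamate pair (EPRS and EARS2), the tryptophan pair and FARSB with FARS2 had it higher with shTIP60-C only. The largest was the arginine pair with shTIP60-B, RARS at 0.63 and RARS2 at -0.82, a difference of 1.45. That RARS2 region was called in the control peak list only. The largest with shTIP60-C was the methionine pair, MARS at 0.25 and MARS2 at -0.79, a difference of 1.04; read at the other MARS2 region, at 0.60, MARS2 would be the higher. In the opposite direction, EPRS stood at 0.09 and PARS2 at 0.75 with shTIP60-B, and AARS at 0.25 and AARS2 at 0.76 with shTIP60-C. The arginine pair rests on the choice of region: RARS had 40 reads in shTIP60-B against 29 in shControl cells in the chosen copy, but 14 in shTIP60-B against 19 in shControl cells at the control peak, where its centred M was -0.37.

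**Figure D5:**
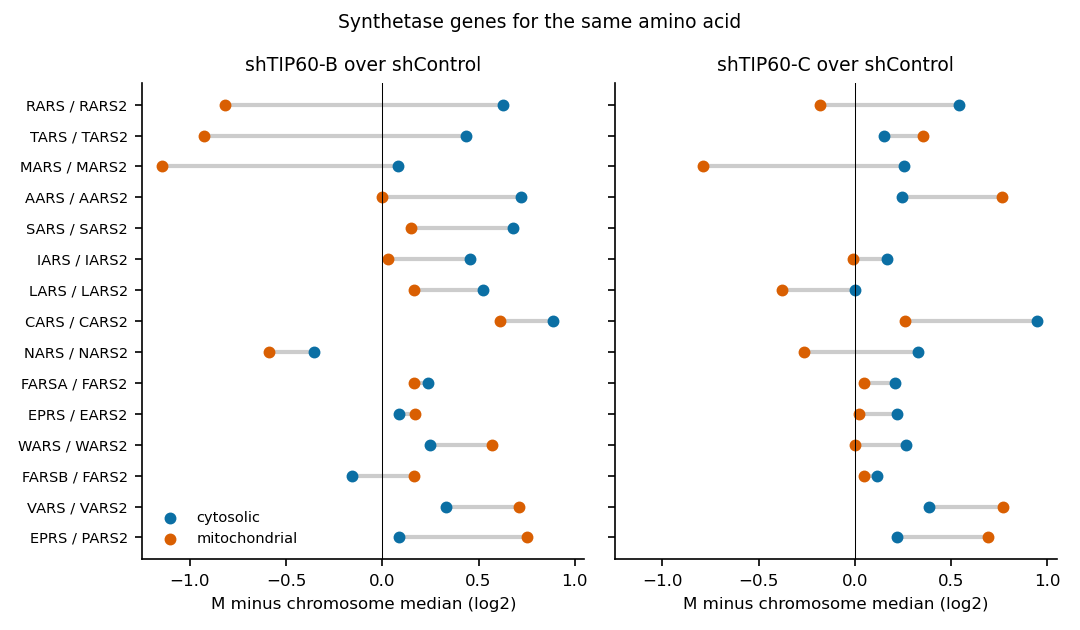
Centred M (log2) of the cytosolic (blue) and mitochondrial (orange) gene for each amino acid, joined by a line, for shTIP60-B (left) and shTIP60-C (right) over shControl. The cytosolic gene lies to the right in 10 of 15 pairs on the left panel and 10 of 14 on the right, not all the same pairs.

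Of the groups that cut across the classes, the 13 amino acid response synthetases had 12 measured, with median centred M of 0.44 with shTIP60-B and 0.25 with shTIP60-C. The other cytosolic and dual genes, 4 measured, had 0.12 and 0.16. These lists overlapped in range with shTIP60-B, from -0.36 to 0.89 for the response genes and from -0.16 to 0.63 for the others. Their median A there was 7.79 and 6.18, and the difference in centred M was not tested. Cytosolic and dual promoters with the motif had medians of 0.45 and 0.25 over 7 genes, and those with a window without it 0.23 and 0.22 over 7 genes. The ranges overlapped, from -0.36 to 0.89 with the motif and from -0.16 to 0.68 without it with shTIP60-B. The 8 measured members of the multi-synthetase complex had medians of 0.18 and 0.18. GARS, the dual glycine enzyme, held 317 reads in shTIP60-B and 672 in shTIP60-C against 352 in shControl cells, and its centred M was 0.47 and 0.09. The scaffold genes lay on different sides of 0 with the hairpins, AIMP1 at -0.15 with shTIP60-B and 0.20 with shTIP60-C, and AIMP2 at 0.26 (0.05 to 0.48) and -0.14. The AIMP2 region covers the start of an adjacent gene as well, whose transcript the annotation names.

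The genes missing from the tables were not without acetylation at their start. DARS, HARS, YARS and KARS, and SARS2 with shTIP60-C, start close to another gene, to which the deposited annotation assigned the region. The shared region of KARS, the dual lysine enzyme, held 159 reads in shTIP60-B against 180 in shControl cells and 396 in shTIP60-C against 179 in shControl cells, with centred M of 0.61 and 0.26. That of YARS, the tyrosine enzyme, held 196 reads in shTIP60-B against 257 in shControl cells and 565 in shTIP60-C against 259 in shControl cells, with centred M of 0.28 in both tables. That of SARS2 in the shTIP60-C table, named for MRPS12, held 207 reads in shTIP60-C against 93 in shControl cells, with centred M of 0.24. HARS shares its region with HARS2, which stood at 0.08 and -0.01. The region beside DARS, named for DARS-AS1, held 847 reads in shTIP60-B against 844 in shControl cells, with M of 0.52 (0.38 to 0.66), and 1581 in shTIP60-C against 860 in shControl cells, with M of 0.01 (-0.12 to 0.13). A region over such a pair cannot be divided between its genes.

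Of 33 other genes of tRNA processing and charging, 29 were measured, with median centred M of 0.08 with shTIP60-B and 0.10 with shTIP60-C. DTD1, a deacylase of mischarged tRNA, passed lower with shTIP60-B, with 85 reads in shTIP60-B against 212 in shControl cells, M of -1.09 and centred M of -0.40, and had M of -0.03 with shTIP60-C. In all, 1 of the 29 passed higher with shTIP60-B, against 1.29% of all genes, and 1 lower, against 3.51%. With shTIP60-C 0 passed higher, against 0.147%, and 0 lower, against 0.0433%. No difference from the background is read from these counts.

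Regions away from the start sites, 47 with shTIP60-B and 55 with shTIP60-C, gave 1 lower call with shTIP60-B, in an intron of AIMP2, and 1 higher call with shTIP60-C, in a region whose nearest start is that of CARS. There were 0 higher calls with shTIP60-B and 0 lower calls with shTIP60-C. Of all regions over 1 kb from a start, 2.61% passed higher and 3.13% lower with shTIP60-B, and 0.283% higher and 0.0603% lower with shTIP60-C. The AIMP2 region, 2351 bp past the start, held 17 reads in shTIP60-B against 70 in shControl cells, with M of -1.97 and p of 3.72e-08, and 85 in shTIP60-C against 70 in shControl cells, with M of -0.68. That intron region was called in the control peak list and in neither knockdown list, and such a listing favours a low ratio. The AIMP2 start itself had M of 0.04 and -0.19.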

How the data were processed

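For H4ac ChIP and input libraries, H1975 chromatin was fixed in 1% formaldehyde for 10 min, sheared to between 100 and 1000 bp and read as 75 bp pairs, per the labels' protocols. Bowtie2, MACS 1.4.2 and hg19 are named in the submitters' processing notes. The tables are MAnorm output annotated with HOMER, per the file headers, for which the sources used here give no versions. Each deposited identifier holds the read counts of a knockdown and a control library, not normalised, M (the authors' log2 ratio after rescaling), A (their mean of the log2 signals) and the −log10 p, also deposited as a peak score. The input libraries were not analysed here. The 6 samples were grouped by title, 1 library per group.

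Computed here, with Python 3.11.15, pandas 2.3.3, numpy 2.4.6, scipy 1.17.1 and matplotlib 3.10.9: the region of most summed reads within 1 kb of the start per gene, centred M, exact counting intervals, levels, medians, counts and motif matches. The scripts were tested on simulated data. Full values are given for members past either call rule, the 4 highest and lowest by centred M per hairpin, members sharing a start, and extreme pairs. Members and lists were chosen with earlier results of these data known. After values were seen, the neighbours of missing members were mapped, ribosomal protein names were limited to exclude paralogs with an added L, the count of intervals off 0 was added, and 3 alternatives were added. Alternatives varied centring, scaling, region choice, promoter width and filters. One gene that the naming rule picks among the other tRNA genes is not reported here.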

Additional observations from a re-analysis of the deposited data

Results flagged for a closer look

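A region outside the start sites, assigned to CARS as the nearest start, stood above the control. It lies at a distance of -30950 bp from that start, in an intron of OSBPL5 (hg19 chr11:3109007-3110256), and held 105 reads in shTIP60-C against 14 in shControl cells, with M of 1.87 (1.06 to 2.79) and p of 1.10e-06. It was called in the shTIP60-C peak list and not in the control list. Its relation to CARS was not tested.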

How the results depend on the processing

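No paired analysis was possible because each group has 1 library and the replicate numbers are names. The cytosolic minus mitochondrial difference of medians stayed above 0 in 17 of 17 alternatives with each hairpin, from 0.10 to 0.27 with shTIP60-B and from 0.11 to 0.27 with shTIP60-C. Some alternatives changed nothing: with shTIP60-B the region of highest A and the 3 kb width gave the main value, 0.17. All reuse the same libraries, so they are not independent checks. The 1 call with shTIP60-B became 3 at a fold of 1.5 and p of 0.001. It became 0 with the fold centred on the chromosome or in 10 Mb windows, with the mean of M over a gene's regions, and without knockdown copies of regions. The 0 calls with shTIP60-C became 1 at a fold of 1.5. The cytosolic ribosomal protein median with shTIP60-B was 0.20 when scaled by the table totals. Of 661 alternatives for single members, 12 moved beyond their counting interval; the centred M of RARS was -0.25 with shTIP60-B without knockdown copies. Alternatives with signal bins, regions under a neighbour's name and a minimum of reads were chosen after seeing the data. Depth limits what is shown: median reads per gene with shTIP60-B were 78 in the knockdown and 101 in the control, and the counting interval of every member was wider than the class difference.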
